A study of Homo sapiens with 5 samples.

Results

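The comparison described here set MDA-MB-231 cells treated for 12 hours with 1 µM OP449 against the same cells given PBS for 12 hours, with 1 library on each side. MDA-MB-231 is a human breast cancer line that lacks hormone receptors and has a mesenchymal pattern of gene expression. The design text calls OP449 a SET antagonist. The 2 libraries were taken from the 5 of the series by their labels. The other 3 libraries, from cells that received control siRNA (siNT), SET siRNA (siSET) or CIP2A siRNA (siCIP2A), are used here to show where a value of OP449 lies among all 5, and siNT also as a second control that differs in time. The siNT and siSET labels give 48 hours and the siCIP2A label gives no time. All 5 were poly(A)-primed libraries from cells grown in IMDM with serum, and each group was 1 library.

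SET is a nuclear and cytoplasmic protein that binds protein phosphatase 2A (PP2A) and inhibits it. PP2A is a family of serine and threonine phosphatases in which a scaffold, a catalytic subunit and 1 of many regulatory subunits form the active enzyme. Known targets of PP2A include the kinases AKT and ERK and the transcription factor MYC, whose stability depends on phosphorylation. The title of the series names MYC and the inhibitors of PP2A as its subject. The genes SET, CIP2A and MYC were not analysed here, so neither the antagonised protein nor MYC could be read from the table.

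Values are scaled counts, the authors' already normalised signal per transcript, and 1 read was worth 1.13 scaled counts in PBS and 1.29 in OP449. The recovered reads over 10596 genes came to 5513739 in PBS and 4762701 in OP449, and the 5 libraries ranged from 3641329 to 5602224. A gene entered the comparison when its mean over PBS and OP449 was at least 50 scaled counts, which 6096 genes passed and 4500 did not. The genes came from chromosomes 1, 10 to 19 and, up to 166.5 Mb, 2. The difference is log2(value + 1) in OP449 minus that in PBS, a scale that understates folds of low genes. Brackets give the 95% exact Clopper-Pearson counting interval of the log2 ratio of the recovered reads. Reads carried no molecular identifiers, and these intervals cover counting error only. With 1 library per condition no difference has a replicate check, and no p-value between conditions exists. In bulk RNA a lower value from fewer cells expressing a gene and from less RNA per cell cannot be told apart. The labelled cell type was read from its markers. Of 9 mesenchymal markers 7 were in the table, all 7 at 50 scaled counts or more, and they summed to 68273 in PBS and 74579 in OP449. Of 14 luminal markers 10 were in the table, 8 of them at 50 scaled counts or more, and the 10 summed to 13985 in PBS and 12247 in OP449. The progesterone receptor gene PGR was at 0 reads in all 5 libraries. Each sum leaned on single genes: CD44 stood at 15270 in PBS and 20560 in OP449, and KRT19 at 5660 and 4275. AXL and ITGB1 stood below PBS in OP449, and KRT8, ERBB2 and ERBB3 above it.

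A gene is called moderately higher or lower here when it differed by at least 0.32 on the log2 scale and its counting interval left out equality. By that rule 493 of 6096 genes, or 8.09%, were higher in OP449, and 413, or 6.77%, were lower. Differences of at least 2-fold were rare, with 18 genes higher (0.295%) and 18 lower (0.295%). The balance of directions was different among the 1621 genes with a mean of at least 1000, where 60 were moderately higher (3.7%) and 96 moderately lower (5.92%). Most genes differed less: 81.9% lay within that distance of PBS, as did 90.4% of the genes with a mean of at least 1000. The median difference over all genes was 0.02, with 3275 above PBS and 2821 below.

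The controls themselves give the scale on which these counts are read. Between siNT and PBS, which differ in time and in treatment, 425 of 6076 genes (6.99%) were moderately higher in siNT and 421 (6.93%) moderately lower. The count of moderate differences in OP449 was therefore close to the count between controls. OP449 had the highest value of the 5 libraries for 369 of its 493 higher genes (74.8%), against 25.7% of all genes, and it was the lowest for 313 of its 413 lower genes (75.8%), against 20.8% of all genes. Being chosen as higher or lower than PBS raises these shares by itself.

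**Figure D1:**
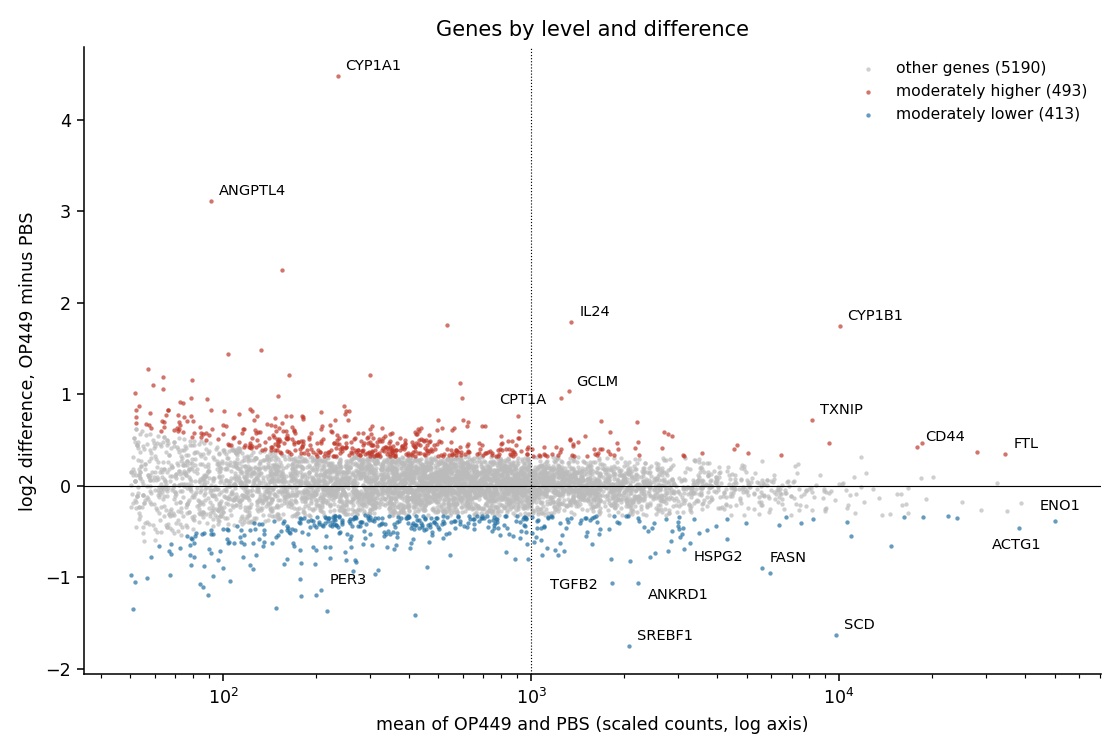
Difference between OP449 and PBS (log2, vertical axis) against the mean of the 2 libraries (scaled counts, log axis) for 6096 genes, 1 point per gene, with 493 moderately higher genes in red, 413 moderately lower genes in blue and a dotted line at a mean of 1000. To the right of that line SREBF1 at -1.75 and SCD at -1.63 lie lowest, IL24 at 1.79 and CYP1B1 at 1.74 lie highest, and the most deeply counted of the named genes, ENO1 at -0.39 and ACTG1 at -0.46, lie nearer 0.

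Transcript length and base composition moved with the difference. Genes were put in 5 equal bins by GC content and, separately, by length. Of the bin with the lowest GC content, 13.9% were moderately higher and 1.89% moderately lower, whereas of the bin with the highest GC content 4.77% were higher and 11.2% lower. Likewise 12.3% of the bin of longest transcripts were higher and 5.43% lower, against 4.11% and 8.46% of the bin of shortest. Across 6079 genes with a sequence, the Spearman correlation of the difference was 0.20 with length and -0.27 with GC content, a description over genes that share 2 libraries. A fitted trend in both features took up 6.28% of the variance, and with it removed 443 genes were moderately higher and 366 moderately lower. Medians with this trend removed are given beside the gene lists described in detail, and beside others whose median changed sign.

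**Figure D2:**
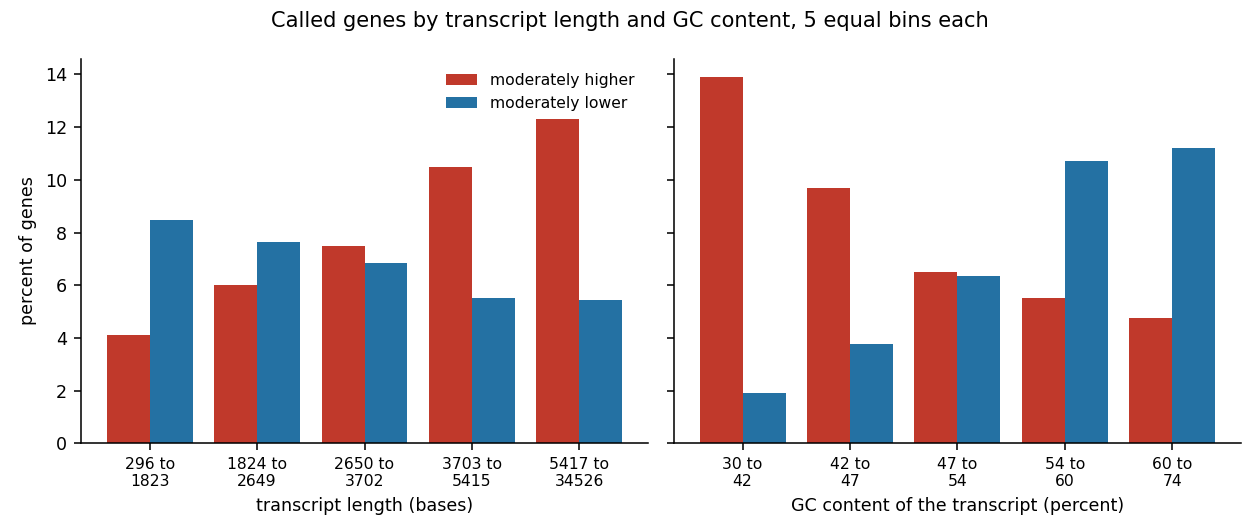
Percent of genes moderately higher (red) or moderately lower (blue) in OP449 than in PBS, in 5 equal bins of transcript length in bases (left) and of GC content in percent (right), with 1215 to 1218 genes per bin. Higher genes run from 4.11% in the shortest bin to 12.3% in the longest, and lower genes from 1.89% in the most GC-poor bin to 11.2% in the most GC-rich.

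The genes that make fatty acids stood low in OP449. Of 29 listed genes of fatty acid synthesis and desaturation, 19 were in the table and 17 passed the floor. Of the 17, 14 stood below PBS. Moderately lower were 6 (35.3%, against 6.77% of all genes) and moderately higher 1 (5.88%, against 8.09%). For 4 of the 17 OP449 was the lowest of the 5 libraries, against 20.8% of all genes. The list's median difference was -0.18, -0.17 with the length and GC trend removed and -0.08 against siNT. These genes are under the control of SREBP transcription factors, which are membrane proteins of the endoplasmic reticulum that move to the Golgi for cleavage and then enter the nucleus.

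SREBF1, which encodes SREBP-1, had 3201 scaled counts in PBS and 953 in OP449, with 2931 in siNT, 3130.5 in siSET and 1763 in siCIP2A. OP449 was the lowest of the 5, at -1.75 [-1.87 to -1.63] from PBS, and siCIP2A was the next. ACACA, the acetyl-CoA carboxylase that makes malonyl-CoA, was at 1329.5 scaled counts in OP449 against 2315 in PBS, 1944 in siNT, 2238 in siSET and 1753 in siCIP2A, again lowest in OP449. The difference was -0.80 [-0.91 to -0.69]. FASN, the synthase that builds palmitate from malonyl-CoA, measured 7297 scaled counts in PBS, 5412 in siNT, 6902 in siSET, 3389 in siCIP2A and 3928 in OP449. The difference from PBS was -0.89 [-0.96 to -0.83], but siCIP2A stood below OP449 for this gene. The same order, with siCIP2A lowest and OP449 next, was seen for the stearoyl-CoA desaturase gene SCD, at 4782 scaled counts in OP449, 14804 in PBS and 2607 in siCIP2A. FADS2, the desaturase at the entry to polyunsaturated fatty acid synthesis, stood at 3446 scaled counts in PBS, 2104 in OP449, 2151 in siNT, 2954 in siSET and 1102 in siCIP2A. Its difference of -0.71 [-0.80 to -0.62] from PBS was only -0.03 from siNT, since siNT was itself low. LPIN1, a phosphatidic acid phosphatase of triglyceride synthesis, differed by -0.76 [-0.89 to -0.63], and by -0.28 from siNT. GPAM, the mitochondrial acyltransferase that starts glycerolipid synthesis, went the other way at 0.45 [0.18 to 0.72], from 212 reads in PBS and 255 in OP449. On hg19 the transcript of ACACA lies on chromosome 17 from 35441928 to 35766902 (minus strand), that of FASN on chromosome 17 from 80036215 to 80056106 (minus strand) and that of FADS2 on chromosome 11 from 61595713 to 61634825 (plus strand).

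Sterol synthesis was less clear once the second control is considered. Of 11 mevalonate and sterol synthesis enzymes past the floor, of 12 in the table, 8 stood below PBS, with a median of -0.17. Of the 11, 3 were moderately lower, or 27.3% against 6.77% of all genes. The median was -0.11 with the trend removed and turned to 0.06 against siNT, which itself had a median of -0.26 against PBS. OP449 was the lowest of the 5 libraries for 0 of the 11. MVK, the kinase that phosphorylates mevalonate, had 341 scaled counts in PBS and 195 in OP449, with 228 in siNT, 282 in siSET and 165 in siCIP2A, a difference of -0.81 [-1.10 to -0.52]. IDI1, which isomerises isopentenyl pyrophosphate, was at 968 scaled counts in OP449 against 1589 in PBS, 1133 in siNT, 1682 in siSET and 695 in siCIP2A, at -0.72 [-0.85 to -0.59]. In both genes siCIP2A was the lowest library and OP449 the next. DHCR7, the last enzyme of cholesterol synthesis, differed by -0.47 [-0.58 to -0.36]. Against siNT the 3 differences were -0.23, -0.23 and -0.21. Others turned with the control: FDPS, the farnesyl pyrophosphate synthase gene, stood at -0.17 against PBS and at 0.28 against siNT, and PMVK at -0.32 and 0.19.

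Among 17 genes of sterol sensing, uptake and export past the floor, 14 stood below PBS and 3 were moderately lower (17.6%, against 6.77% of all genes). The median was -0.16, -0.13 with the trend removed and -0.06 against siNT. INSIG2 encodes the membrane protein that holds the SREBP escort in the endoplasmic reticulum when sterols are plentiful. It measured 1035 scaled counts in PBS, 1097 in siNT, 1083 in siSET, 1056 in siCIP2A and 625 in OP449. The other 4 libraries lay within 1035 and 1097, and OP449 stood outside that range at -0.73 [-0.89 to -0.57]. The receptors LRP5 and LRP10 differed little, at -0.23 [-0.32 to -0.14] and -0.22 [-0.30 to -0.14]. SOAT1, which esterifies cholesterol for storage, stood at 0.19 [0.10 to 0.29].

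Genes of fatty acid oxidation did not share a direction, with 10 of 21 above PBS and a median of -0.03, which was 0.03 with the trend removed. Of the 21, 3 were moderately higher (14.3%, against 8.09% of all genes) and 2 moderately lower (9.52%, against 6.77%). The members named here and in the lists of phospholipid metabolism, clock, apoptosis, ribosome biogenesis and DNA repair were chosen after their values were seen. CPT1A, the outer-membrane carnitine palmitoyltransferase that admits long-chain fatty acids to mitochondria, stood at 849 scaled counts in PBS, 1653 in OP449, 890.0 in siNT, 920.3 in siSET and 896 in siCIP2A. The other 4 libraries spanned only 849 to 920.3, and OP449 stood 1.95-fold above PBS, at 0.96 [0.83 to 1.09]. ACAA2, the last enzyme of the mitochondrial cycle, stood at 0.48 [0.22 to 0.74], with siCIP2A almost level with OP449. ANGPTL4, a secreted inhibitor of lipoprotein lipase and a PPAR target, had 18.1 scaled counts in PBS and 165 in OP449, with 47.4 in siNT, 18.8 in siSET and 104 in siCIP2A. It was low in PBS, where it rested on 16 reads, and siCIP2A was the second highest. ACADS, a short-chain acyl-CoA dehydrogenase, and UCP2, a mitochondrial carrier, stood lower at -0.61 [-1.06 to -0.18] and -0.51 [-0.71 to -0.32]. In phospholipid and sphingolipid metabolism 14 of 28 genes stood above PBS and the median was -0.01, or 0.01 with the trend removed. Within it the ethanolamine genes were split against PBS. EPT1, now named SELENOI, which makes phosphatidylethanolamine from CDP-ethanolamine, was at 1576 scaled counts in OP449 against 1106 in PBS, 1312 in siNT, 1348 in siSET and 1083 in siCIP2A, at 0.51 [0.39 to 0.63]. The kinase gene ETNK1, which starts that route, stood at 0.36 [0.14 to 0.57], or 0.19 with the trend removed. Against siNT, EPT1 stood at 0.26 and ETNK1 at 0.19, both short of the moderate threshold. PCYT2, which makes CDP-ethanolamine, stood at -0.54 [-0.70 to -0.38] against PBS, and PEMT, which methylates phosphatidylethanolamine, at -0.45 [-0.76 to -0.16], but both lay close to siNT, at -0.14 and -0.06. The sphingosine kinase gene SPHK1 stood at 0.60 [0.23 to 0.98] and KDSR, an early enzyme of ceramide synthesis, at 0.39 [0.24 to 0.54]. OP449 was the highest of the 5 libraries for both.

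The aryl hydrocarbon receptor is a ligand-activated transcription factor that pairs with ARNT and switches on enzymes of xenobiotic metabolism. Of 13 listed targets and partners past the floor, 9 stood above PBS. Of the 13, 4 were moderately higher (30.8%, against 8.09% of all genes) and 0 moderately lower (against 6.77%). The median was 0.20, 0.17 with the trend removed and 0.08 against siNT. The 4 higher genes were CYP1A1, CYP1B1, ALDH1A3 and SLC7A5, a transporter gene that is counted again among the ATF4 targets further on. CYP1A1 measured 19.3 scaled counts in PBS, 58.1 in siNT, 41.1 in siSET, 121 in siCIP2A and 451 in OP449. Its value in PBS rested on 17 reads, and siCIP2A was the second highest library. CYP1B1, its much more abundant relative, stood at 4617 scaled counts in PBS, 15459.5 in OP449, 5398 in siNT, 5982 in siSET and 7347 in siCIP2A. All 4 other libraries lay at or under 7347 scaled counts. ALDH1A3, a retinaldehyde dehydrogenase, had 402 scaled counts in PBS and 786 in OP449, with 750.2 in siNT, 639.8 in siSET and 857 in siCIP2A. Here PBS was the outlying library: the difference was 0.96 [0.77 to 1.16] from PBS and 0.07 from siNT, and siCIP2A stood highest. NQO1, a quinone reductase shared with the NRF2 response, stood at 0.29 [0.21 to 0.36]. ARNT stood at 0.20 [0.02 to 0.39] against PBS and at -0.0088 against siNT.

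Genes of the NRF2 response, which supply glutathione and thioredoxin and bind iron, were higher in part. Of 23 past the floor, of 28 in the table, 14 stood above PBS. Of the 23, 8 were moderately higher (34.8%, against 8.09% of all genes) and 2 moderately lower (8.7%, against 6.77%). The median was 0.12, 0.19 with the trend removed and 0.16 against siNT. GCLM, the modifier subunit of glutamate-cysteine ligase, which makes the precursor of glutathione, was at 1777 scaled counts in OP449 against 868 in PBS, 860.4 in siNT, 734 in siSET and 875 in siCIP2A. The other 4 libraries lay between 734 and 875, and OP449 stood 2.04-fold above PBS, at 1.03 [0.90 to 1.16]. TXNRD1, thioredoxin reductase 1, measured 24417 scaled counts in PBS, 22965 in siNT, 22461 in siSET, 18907 in siCIP2A and 31519 in OP449. This was a difference of 1.29-fold, or 0.37 [0.34 to 0.39], at a depth of 21540 and 24466 reads. The ferritin genes also stood above PBS, but not above every library. FTL, the light chain, stood at 30492 scaled counts in PBS, 38805 in OP449, 29869.8 in siNT, 40619 in siSET and 42279 in siCIP2A. FTH1, the heavy chain, had 7758 scaled counts in PBS and 10765 in OP449, with 9358 in siNT, 9821 in siSET and 11222 in siCIP2A. In both, siCIP2A stood above OP449, and siSET did so for FTL. MGST1, a membrane-bound glutathione transferase, stood at 0.34 [0.23 to 0.44] and was highest in OP449. OSGIN1 stood at 0.45 [0.19 to 0.71] and the aldo-keto reductase gene AKR1C3 at 0.43 [0.09 to 0.77]. The 8 higher genes also include CHAC1, a glutathione-degrading gene that is counted again among the ATF4 targets further on. The transporter gene ABCC3 and the glutathione transferase gene GSTM4 stood below PBS, at -0.36 [-0.53 to -0.20] and -0.53 [-0.78 to -0.28]. Several of these genes have close copies or processed pseudogenes (FTL, FTH1, AKR1C3, GSTM4, and further on LDHA, ENO1, ACTG1 and KRT81), and their values are uncertain to the extent that reads were shared with those copies, on which no source used here gives the rule.

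ATF4 is the transcription factor through which cells answer amino acid shortage and other stresses that slow translation. Of its 27 listed targets past the floor, 16 stood above PBS, with a median of 0.16, 0.12 with the trend removed and 0.14 against siNT. Moderately higher were 8 (29.6%, against 8.09% of all genes) and moderately lower 1 (3.7%, against 6.77%). OP449 was the highest of the 5 libraries for 12 of the 27 and the lowest for 2, against 25.7% and 20.8% of all genes. SLC3A2, the heavy chain that carries several amino acid transporters to the membrane, was at 3325 scaled counts in OP449 against 2249 in PBS, 2281 in siNT, 2162 in siSET and 1917 in siCIP2A. The other 4 values stayed between 1917 and 2281, and the difference was 0.56 [0.48 to 0.65]. Its light-chain partner SLC7A5, the transporter of large neutral amino acids, measured 5736 scaled counts in PBS, 6212 in siNT, 5782 in siSET, 4066 in siCIP2A and 7244 in OP449. The difference was smaller, at 0.34 [0.28 to 0.39], and siCIP2A stood lowest. DDIT3, the transcription factor CHOP, stood at 280.0 scaled counts in PBS, 416 in OP449, 213 in siNT, 205 in siSET and 249.6 in siCIP2A, with OP449 above the other 4 at 0.57 [0.33 to 0.82]. PPP1R15A, whose protein GADD34 brings a phosphatase to eIF2, had 2156 scaled counts in PBS and 3249 in OP449, with 2328 in siNT, 1305 in siSET and 3613 in siCIP2A. It stood at 0.59 [0.51 to 0.68] against PBS but below siCIP2A. The glutathione-degrading enzymes CHAC1 and CHAC2 stood at 0.82 [0.26 to 1.43] and 0.73 [0.39 to 1.08], the first on 42 and 66 reads and only 0.16 above siNT. CTH, which makes cysteine, stood at 0.40 [0.11 to 0.70], the alanine, serine and cysteine transporter gene SLC1A4 at 0.33 [0.01 to 0.65], and the proline synthesis gene PYCR1 at -0.40 [-0.53 to -0.27]. Against siNT, CTH stood at only 0.07, SLC1A4 at 0.53 and PYCR1 at -0.23. Aminoacyl-tRNA synthetases, many of them also ATF4 targets, had a median of -0.03, or 0.02 with the trend removed, with 10 of 21 above PBS.

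The promoters of 5206 of the 6096 genes were found in a RefSeq table on GRCh38.p14 that covers 250 bases before to 50 after each start. The letters TGACNNNGC, the core that NRF2 and its partners bind, were searched on both strands and stood in 14.7% of all these promoters, in 14.6% of those of moderately higher genes and in 14% of those of moderately lower genes. The letters TNGCGTG, the core read by the aryl hydrocarbon receptor and ARNT, stood in 7.38% of all, 7.42% of higher and 6.1% of lower genes. A match is a description of letters and not a binding site. Windows upstream of the start are shown for 3 of the higher genes because GCLM and TXNRD1 are NRF2 targets and SLC3A2 a gene of amino acid transport, all described here, a choice made after the matches were seen. Each runs 5′ to 3′ on the gene's strand with the match in capitals.

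GCLM: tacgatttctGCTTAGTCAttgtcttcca
TXNRD1: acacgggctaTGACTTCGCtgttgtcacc
SLC3A2: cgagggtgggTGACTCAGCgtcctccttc

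The window of GCLM covers chr1:93909446-93909474 on the minus strand, with the match on the opposite strand and its first base -34 from the start. That of TXNRD1 covers chr12:104215670-104215698 on the plus strand, at -99, and that of SLC3A2 chr11:62881652-62881680 on the plus strand, at -37. SLC3A2 is among the listed ATF4 targets. No match printed here overlaps one to another of the motifs searched.

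Most chaperone and unfolded protein response genes of the endoplasmic reticulum stood below PBS. The unfolded protein response works through 3 sensors, of which EIF2AK3 leads to ATF4 and ATF6 to chaperone genes. Of 21 listed genes past the floor, 16 stood below PBS, and OP449 was the lowest of the 5 libraries for 11, against 20.8% of all genes. Moderately lower were 4 (19%, against 6.77% of all genes) and moderately higher 1 (4.76%, against 8.09%). The median was -0.20, -0.21 with the trend removed and -0.19 against siNT. CALR, the calcium-binding lectin chaperone calreticulin, was at 16467 scaled counts in OP449 against 20904 in PBS, 19602 in siNT, 20908 in siSET and 19425 in siCIP2A. The other 4 lay between 19425 and 20908, and the difference was -0.34 [-0.38 to -0.31] on 18441 and 12782 reads. PPIB, a prolyl isomerase of the lumen, measured 4569 scaled counts in PBS, 4642 in siNT, 4473 in siSET, 4241 in siCIP2A and 3375 in OP449. OP449 was again below the other 4, at -0.44 [-0.51 to -0.37]. HERPUD1, a part of the degradation machinery, stood at -0.42 [-0.62 to -0.22] and the disulfide isomerase gene PDIA6 at -0.32 [-0.38 to -0.26], just under the threshold. The sensors differed among themselves. EIF2AK3, also called PERK, stood at -0.39 [-0.63 to -0.15] against PBS but at 0.18 against siNT, and ATF6 at 0.33 [0.17 to 0.49] and 0.04.

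Vesicle coat and Golgi genes also leaned low. Of 36 past the floor, 27 stood below PBS, with a median of -0.12, -0.13 with the trend removed and -0.11 against siNT, and OP449 was the lowest of the 5 libraries for 17, against 20.8% of all genes. Of the 36, 2 were moderately lower, or 5.56% against 6.77% of all genes, and 0 moderately higher. The 2 were BET1L, a SNARE of the Golgi, at -0.42 [-0.57 to -0.28], and TRAPPC5, a subunit of the TRAPP tether, at -0.41 [-0.63 to -0.19]. Short of the threshold were SEC23A, of the COPII coat, at -0.23 [-0.35 to -0.12], the golgin genes GOLGA3 at -0.30 [-0.43 to -0.18] and GOLGA5 at -0.28 [-0.45 to -0.11], and the SNARE gene GOSR2 at -0.28 [-0.48 to -0.08]. By contrast, the 29 genes of signal peptide handling, translocon and N-glycosylation were split, with 13 above and 16 below PBS and a median of -0.06.

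Glycolysis genes stood low in OP449. Of 21 past the floor, 17 stood below PBS, and OP449 was the lowest of the 5 libraries for 15, against 20.8% of all genes. Moderately lower were 6 (28.6%, against 6.77% of all genes) and moderately higher 0 (against 8.09%). The median was -0.19, -0.13 with the trend removed and -0.20 against siNT. The members named here follow the pathway from glucose entry to lactate export. SLC2A1, the glucose transporter GLUT1, stood at 9223 scaled counts in PBS, 7191 in OP449, 9394 in siNT, 7369 in siSET and 8383 in siCIP2A. Its difference was -0.36 [-0.41 to -0.31], and siSET stood close to OP449. HK2, the hexokinase that traps glucose in the cell, had 1791 scaled counts in PBS and 1224 in OP449, with 2252 in siNT, 2003 in siSET and 2185 in siCIP2A. OP449 stood below all others, at -0.55 [-0.67 to -0.43] from PBS and -0.88 from siNT. ENO1, the enolase, was among the most abundant transcripts and was at 43473 scaled counts in OP449 against 56791 in PBS, 44587 in siNT, 45743 in siSET and 44720.3 in siCIP2A. Here PBS was the outlying library: the difference was -0.39 [-0.41 to -0.37] from PBS and -0.04 from siNT. LDHA, which turns pyruvate into lactate, measured 26955 scaled counts in PBS, 25533 in siNT, 26264 in siSET, 27029 in siCIP2A and 21213 in OP449. OP449 was below the other 4, which lay between 25533 and 27029, and differed from PBS by -0.35 [-0.37 to -0.32]. SLC16A3, the lactate exporter MCT4, stood at 8578 scaled counts in PBS, 6456 in OP449, 8132 in siNT, 9227 in siSET and 8296 in siCIP2A, at -0.41 [-0.46 to -0.36]. ALDOC, a minor aldolase, differed most, at -0.86 [-1.31 to -0.44], but on 139 and 67 reads.

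Many glycolysis genes are also targets of hypoxia-inducible factors, and a separate list held other such targets. Of 22 past the floor, 14 stood below PBS. Of the 22, 8 were moderately lower (36.4%, against 6.77% of all genes) and 2 moderately higher (9.09%, against 8.09%). The median was -0.16, -0.19 with the trend removed and -0.21 against siNT, and the mean was nearer 0 at -0.03. BNIP3, a mitophagy receptor, had 3618 scaled counts in PBS and 2459 in OP449, with 3637 in siNT, 3474 in siSET and 3685 in siCIP2A. The other 4 libraries differed little and OP449 stood apart at -0.56 [-0.64 to -0.47]. CA12, a membrane carbonic anhydrase, stood at -0.61 [-0.83 to -0.40], the growth factor gene VEGFB at -0.44 [-0.58 to -0.30], the MYC antagonist gene MXI1 at -0.40 [-0.63 to -0.18], the procollagen lysine hydroxylase gene PLOD1 at -0.36 [-0.45 to -0.28], the histone demethylase gene KDM4B at -0.35 [-0.52 to -0.18] and PPFIA4 at -0.65 [-1.02 to -0.30]. INSIG2 is on this list as well as on the sterol list. The exceptions were ANGPTL4 and EPAS1, which encodes HIF-2 alpha and stood at 0.38 [0.23 to 0.53]. Oxidative phosphorylation genes had medians nearer 0. Of 24 in complexes II to V, 20 stood below PBS with a median of -0.08, but the median was -0.03 with the trend removed and -0.02 against siNT, and 0 reached the moderate threshold. UQCRFS1 of complex III stood at -0.28 [-0.44 to -0.12], COX4I1 of complex IV at -0.23 [-0.34 to -0.13] and ATP5C1 of the ATP synthase at -0.21 [-0.32 to -0.11]. In complex I 15 of 19 stood below PBS, and the median of -0.07 became 0.0022 with the trend removed.

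The letters CACGTG, an E-box of the kind bound by MYC with MAX and by the clock factors, which also contains the core that hypoxia-inducible factors read, stood in 10.4% of all promoters, 10.5% of those of higher genes and 11.6% of those of lower genes. The match reads the same on both strands. Upstream windows of BNIP3 and LDHA, both lower in OP449, and of SLC7A5, which stood higher, are shown to set the letters of genes with opposite differences side by side, with the match in capitals and each window 5′ to 3′ on the gene's strand.

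BNIP3: gcacgcgccgCACGTGccacacgcac
LDHA, far: actcccagcgCACGTGgagcagtctg
LDHA, near: gcccgactcaCACGTGggttcccgca
SLC7A5: ccggacgacgCACGTGctccgagctg

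On GRCh38.p14 these are chr10:131982042-131982067 on the minus strand, chr11:18394368-18394393 and chr11:18394466-18394491 on the plus strand, and chr16:87869622-87869647 on the minus strand. The first base of the match lay -134 from the start in BNIP3, -185 and -87 in LDHA and -130 in SLC7A5.

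Genes that report on the actin cytoskeleton through SRF and on cell tension through YAP and TEAD stood low. Of 30 past the floor, 23 stood below PBS. Moderately lower were 7 (23.3%, against 6.77% of all genes) and moderately higher 1 (3.33%, against 8.09%). The median was -0.14, -0.14 with the trend removed and -0.17 against siNT. ANKRD1, a classic YAP target, was at 1436 scaled counts in OP449 against 3004 in PBS, 2053 in siNT, 2985 in siSET and 2630.2 in siCIP2A. OP449 was the lowest library, at -1.06 [-1.17 to -0.96] from PBS, and siNT was the next lowest, so the difference from siNT was -0.51. CYR61, now named CCN1, a matricellular YAP target, measured 13011 scaled counts in PBS, 14435 in siNT, 10946 in siSET, 11425 in siCIP2A and 8902 in OP449, at -0.55 [-0.59 to -0.50]. TGFB2, a transforming growth factor, stood at 2480.2 scaled counts in PBS, 1188 in OP449, 2280.2 in siNT, 2747 in siSET and 1214 in siCIP2A. OP449 and siCIP2A were nearly equal and the other 3 stood at 2280.2 scaled counts or more. Among the cytoskeletal genes, the calponin CNN2 had 3428 scaled counts in PBS and 2262 in OP449, with 3497 in siNT, 3662 in siSET and 3076 in siCIP2A. Its relative CNN3 was at 3472 scaled counts in OP449 against 5189 in PBS, 3929 in siNT, 6228 in siSET and 4408 in siCIP2A. CNN2 differed from PBS by -0.60 [-0.69 to -0.51] and CNN3 by -0.58 [-0.65 to -0.51], but from siNT by -0.63 and -0.18. ACTG1, the cytoplasmic gamma actin gene, differed by -0.46 [-0.48 to -0.43] at a depth of 39118 and 25100 reads, and by -0.27 from siNT. GADD45B stood at -0.51 [-0.81 to -0.21]. MKL2, now named MRTFB, a coactivator of SRF, stood higher at 0.39 [0.15 to 0.63].

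Integrin, focal adhesion and matrix genes stood low in the main, with exceptions in both integrins and matrix proteases. Of 46 past the floor, 31 stood below PBS, with a median of -0.16, -0.12 with the trend removed and -0.20 against siNT. Moderately lower were 11 (23.9%, against 6.77% of all genes) and moderately higher 5 (10.9%, against 8.09%). OP449 was the lowest of the 5 libraries for 20 of the 46, against 20.8% of all genes. HSPG2, the basement membrane proteoglycan perlecan, measured 3879 scaled counts in PBS, 3713 in siNT, 5113 in siSET, 3625 in siCIP2A and 2403 in OP449. LOXL4, a lysyl oxidase that crosslinks matrix, stood at 2664 scaled counts in PBS, 1512 in OP449, 2787 in siNT, 3731 in siSET and 2987 in siCIP2A. OP449 was the lowest in both and siSET the highest, and the differences from PBS were -0.69 [-0.77 to -0.61] and -0.82 [-0.92 to -0.71]. The collagen genes COL9A2 and COL13A1 stood at -0.90 [-1.40 to -0.43] and -0.80 [-0.95 to -0.65], and LTBP2, a microfibril protein, at -0.70 [-1.04 to -0.37]. Of the integrins, the laminin receptor subunits ITGB4 and ITGA3 stood lower, at -0.49 [-0.58 to -0.40] and -0.34 [-0.38 to -0.31], as did ITGAE at -0.33 [-0.63 to -0.03], whereas ITGB3 stood higher at 0.70 [0.16 to 1.27] on 48 and 69 reads. VCAM1, an adhesion receptor of inflamed cells, had 125 scaled counts in PBS and 54.1 in OP449, with 146 in siNT, 130.0 in siSET and 47.5 in siCIP2A, with siCIP2A slightly below OP449. The adaptor genes PARVA and LIMS1, which act together at integrin tails, stood at -0.36 [-0.49 to -0.22] and 0.40 [0.01 to 0.80]. CD44, the hyaluronan receptor, was at 20559.9 scaled counts in OP449 against 15270.2 in PBS, 18572 in siNT, 13820.3 in siSET and 14599 in siCIP2A. OP449 was the highest, 0.43 [0.40 to 0.46] above PBS and 0.15 above siNT. THBS1, thrombospondin 1, stood at 0.47 [0.43 to 0.50] against PBS and -0.10 against siNT. MMP1, interstitial collagenase, measured 48.7 scaled counts in PBS, 47.4 in siNT, 6.84 in siSET, 82.8 in siCIP2A and 109.5 in OP449. It was highest in OP449, at 1.15 [0.62 to 1.73], and lowest in siSET.

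Although the line is mesenchymal, part of an epithelial program is expressed in it, and that part stood low. Of 37 genes of keratins, desmosomes and epithelial junctions past the floor, of 63 in the table, 28 stood below PBS. Moderately lower were 8 (21.6%, against 6.77% of all genes) and moderately higher 1 (2.7%, against 8.09%). The median was -0.15, -0.14 with the trend removed and -0.37 against siNT, which itself stood above PBS by 0.12. KRT7, a simple-epithelium keratin, stood at 4138 scaled counts in PBS, 2891 in OP449, 4898 in siNT, 4715 in siSET and 3938 in siCIP2A. KRT19, another, had 5659.9 scaled counts in PBS and 4275 in OP449, with 5584 in siNT, 5998 in siSET and 4706 in siCIP2A. OP449 was the lowest for both, at -0.52 [-0.59 to -0.44] and -0.40 [-0.47 to -0.34] from PBS. PPL, the desmosomal plakin periplakin, was at 83.7 scaled counts in OP449 against 213 in PBS, 377 in siNT, 258 in siSET and 404 in siCIP2A. The plakophilins PKP2 and PKP3 stood at -0.42 [-0.75 to -0.10] and -0.33 [-0.59 to -0.06], and the hair keratin gene KRT81 at -0.99 [-1.52 to -0.50]. PRICKLE1, of the planar polarity pathway, measured 314 scaled counts in PBS, 322 in siNT, 303 in siSET, 202 in siCIP2A and 121 in OP449, lowest in OP449 at -1.37 [-1.73 to -1.03]. CDH11, a mesenchymal cadherin on the same list, stood at -0.75 [-0.89 to -0.61]. The only moderately higher member was the tight junction gene CGN, at 1.10 [0.49 to 1.77] on 33 and 63 reads, while its relative CGNL1 had 37.4 scaled counts against 75.9. Tetraspanins and other surface glycoproteins leaned the same way, with 25 of 33 below PBS. Their median was -0.13, -0.08 with the trend removed, but -0.03 against siNT. Of the 33, 5 were moderately lower (15.2%, against 6.77% of all genes) and 3 moderately higher (9.09%, against 8.09%). TSPAN9 stood at -0.80 [-0.96 to -0.64] and TSPAN14 at -0.50 [-0.62 to -0.39]. CD9, a tetraspanin, and CD59, an inhibitor of complement, stood higher at 0.40 [0.29 to 0.51] and 0.40 [0.34 to 0.47]. The luminal markers were mixed. KRT8 stood at 3912 scaled counts in PBS and 4123 in OP449, ERBB2 at 1080.3 and 1118, and KRT18 at 2554 and 2070.3, while the E-cadherin gene CDH1, at 56.7 and 12.9, did not pass the floor.

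**Figure D3:**
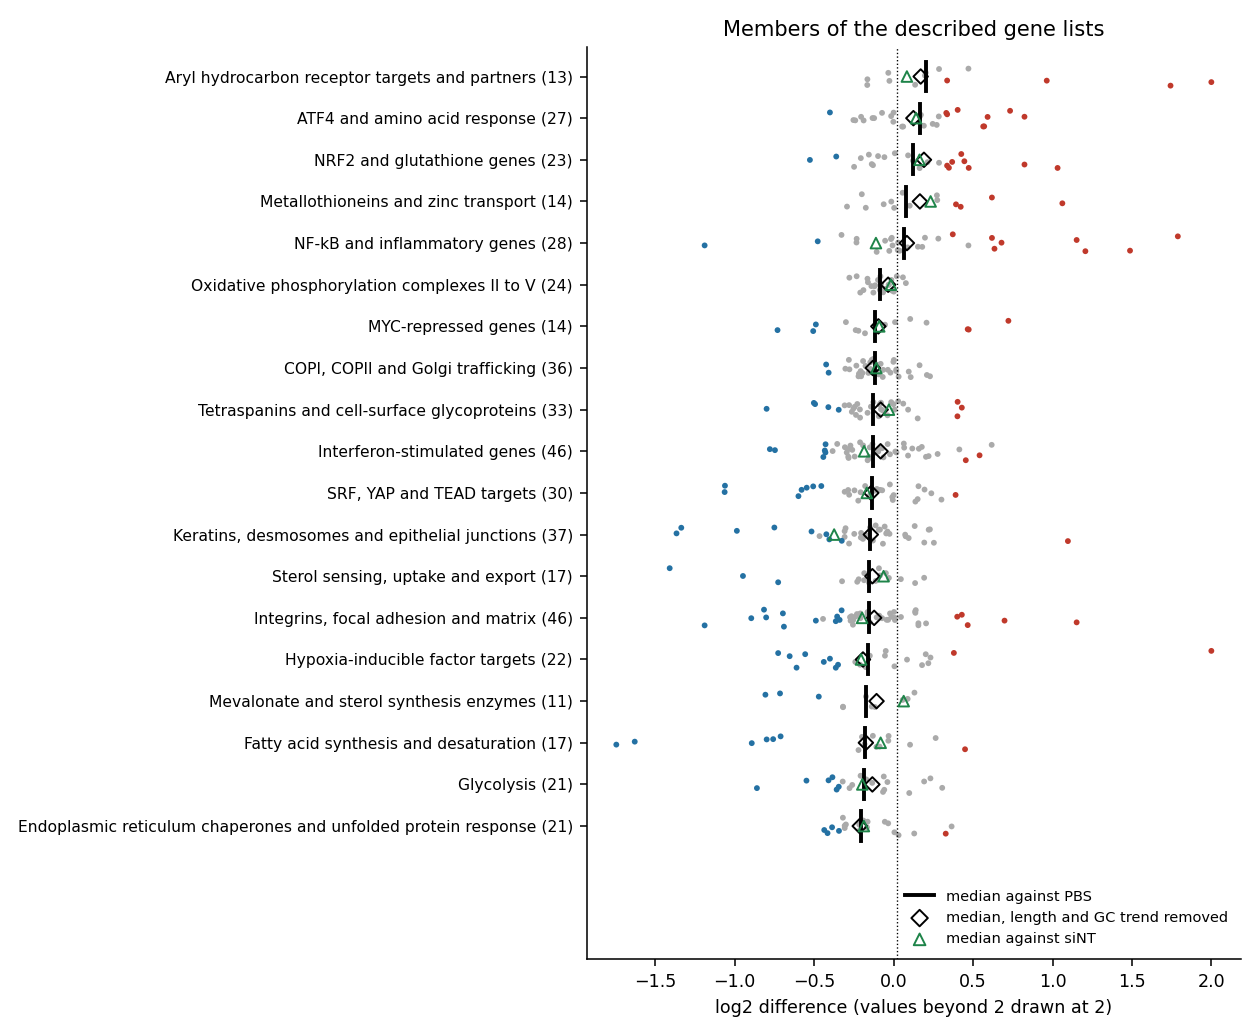
Log2 difference between OP449 and PBS (horizontal axis, values beyond 2 drawn at 2) for each member past the floor of the 19 lists described, 1 point per gene, red and blue where moderately higher or lower, with the number of genes in brackets after each name and the all-gene median of 0.02 as a dotted line. Black bars are list medians against PBS, diamonds the medians with the length and GC trend removed and triangles the medians against siNT, which lie on the other side of 0 for the mevalonate list (0.06) and the NF-kB list (-0.11).

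Inflammatory genes of the NF-kB response differed widely without a common shift. Of 28 past the floor, 17 stood above PBS. Moderately higher were 8 (28.6%, against 8.09% of all genes) and moderately lower 2 (7.14%, against 6.77%). The median was 0.06, 0.08 with the trend removed, and turned to -0.11 against siNT, in which the same genes lay above PBS by a median of 0.17. The cytokine gene IL24 stood at 605 scaled counts in PBS, 2095 in OP449, 1074 in siNT, 221 in siSET and 552 in siCIP2A. OP449 stood above either control, at 1.79 [1.65 to 1.93] from PBS and 0.96 from siNT. IL11, an interleukin of the IL-6 family, had 180.2 scaled counts in PBS and 417 in OP449, with 151 in siNT, 135 in siSET and 42.0 in siCIP2A. It too was highest in OP449, at 1.21 [0.93 to 1.49]. Others depended on the control. CSF3, the growth factor G-CSF, stood 1.49 [1.06 to 1.95] above PBS but at -0.70 against siNT, the cytokine gene IL1A 0.62 [0.30 to 0.94] above PBS but at -0.99 against siNT, and its receptor gene IL1R1 0.63 [0.42 to 0.86] above PBS but at -0.16 against siNT. REL, a subunit of NF-kB, stood at 0.68 [0.07 to 1.33] on 38 and 54 reads, and its inhibitor gene NFKBIB at 0.37 [0.13 to 0.61]. Against siNT they stood at 0.15 and 0.23. TNFAIP2 stood lower, at -0.48 [-0.55 to -0.40], as did VCAM1.

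Interferon-stimulated genes leaned low. Of 46 past the floor, 31 stood below PBS, with a median of -0.13, -0.08 with the trend removed and -0.19 against siNT. Moderately lower were 6 (13%, against 6.77% of all genes) and moderately higher 2 (4.35%, against 8.09%). IFIT1, which binds foreign RNA, was at 376 scaled counts in OP449 against 507 in PBS, 520.3 in siNT, 546 in siSET and 295 in siCIP2A, at -0.43 [-0.65 to -0.21], and siCIP2A was lower still. PSMB10, a subunit of the immunoproteasome, stood at -0.44 [-0.72 to -0.17], and GBP4 at -0.75 [-1.36 to -0.18] on 75 and 39 reads. The moderately higher members were 2 sensors of nucleic acid. IFI16, a sensor of DNA, measured 1221 scaled counts in PBS, 1169.7 in siNT, 1259 in siSET, 1642 in siCIP2A and 1777 in OP449, highest in OP449 at 0.54 [0.43 to 0.66]. EIF2AK2, the kinase PKR that senses double-stranded RNA, stood at 0.45 [0.24 to 0.67] against PBS and 0.11 against siNT. The receptor gene IL28RA, now named IFNLR1, stood at 1.28 [0.65 to 1.99].

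Some genes of zinc transport stood high. Of 14 metallothionein and zinc transport genes past the floor, 9 stood above PBS. Moderately higher were 4 (28.6%, against 8.09% of all genes) and moderately lower 0 (against 6.77%). The median was 0.08, 0.17 with the trend removed and 0.23 against siNT. SLC30A1, the zinc exporter of the plasma membrane, stood at 338 scaled counts in PBS, 519 in OP449, 341 in siNT, 439.6 in siSET and 329 in siCIP2A. OP449 stood highest, at 0.62 [0.40 to 0.84]. SLC30A4 and SLC30A6, which move zinc into vesicles, stood at 1.06 [0.48 to 1.71] and 0.39 [0.12 to 0.67], and MTF1, the transcription factor that senses zinc, at 0.42 [0.20 to 0.64]. For SLC30A6 and MTF1 another library stood above OP449. The metallothionein gene MT1X stood at 0.27 [0.02 to 0.53] against PBS, short of the threshold, and at 0.86 against siNT. It was highest in siCIP2A, at 622 scaled counts against 347 in OP449. The importer gene SLC39A6 stood at 0.27 [0.15 to 0.40] against PBS and at -0.0057 against siNT.

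The circadian clock is a loop in which BMAL1 and its partners CLOCK or NPAS2 switch on the PER genes, whose proteins then repress them, and in which DBP is an output. Among 13 clock genes past the floor the median was 0.02. Of the 13, 3 were moderately higher (23.1%, against 8.09% of all genes) and 3 moderately lower (23.1%, against 6.77%). ARNTL, now named BMAL1, had 134 scaled counts in PBS and 228 in OP449, with 91.3 in siNT, 125 in siSET and 116 in siCIP2A. OP449 was the highest, at 0.77 [0.43 to 1.12]. PER3 was at 130.1 scaled counts in OP449 against 287 in PBS, 321 in siNT, 375 in siSET and 188 in siCIP2A, lowest in OP449 at -1.13 [-1.49 to -0.80]. PER1 stood at -0.69 [-1.21 to -0.21] and DBP at -1.35 [-2.15 to -0.66], the latter on 65 and 22 reads. NPAS2 stood at 0.34 [0.23 to 0.46] and ARNTL2 at 0.39 [0.18 to 0.60], but at 0.07 and -0.04 against siNT. The letters TTATGTAA, a D-box of the kind DBP and its relatives bind, were found on either strand in 0.346% of all promoters, 0.239% of those of higher genes and 0.61% of those of lower genes. These shares are 18 of 5206, 1 of 418 and 2 of 328 promoters, too few to compare. PER3 held them at -177 from its start, in a window at chr1:7784104-7784131 of GRCh38.p14 on the plus strand, shown because PER3 and DBP are both clock genes named here, with the match in capitals.

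PER3: agcccgcgcgTTATGTAAcgcgccccgg

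The apoptosis genes did not share a direction. Of 25 genes of the BCL2 family and apoptosis regulators past the floor, 11 stood above PBS, 3 were moderately higher, 0 moderately lower and the median was -0.05, which became 0.0047 with the trend removed. The 3 were BCL2L11, BMF and CASP4, or 12% against 8.09% of all genes. BCL2L11, the BH3-only gene BIM, measured 376 scaled counts in PBS, 365 in siNT, 460.2 in siSET, 457 in siCIP2A and 619.7 in OP449. The other 4 lay between 365 and 460.2, and OP449 stood at 0.72 [0.51 to 0.93] above PBS and 0.76 above siNT. BMF, another BH3-only gene, stood at 98.6 scaled counts in PBS, 229 in OP449, 199 in siNT, 287 in siSET and 180.0 in siCIP2A. For this gene PBS was the low library and siSET the highest, and OP449 stood 0.20 above siNT. BBC3, the BH3-only gene PUMA, stood at -0.36 [-0.78 to 0.06], an interval that holds 0. CASP4, an inflammatory caspase, stood at 0.49 [0.22 to 0.76], under siCIP2A. Among 33 FOXO and PI3K-responsive genes, 19 stood above PBS with a median of 0.06, and among 23 p53 targets 13 did, with a median of 0.07.

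MYC-induced genes, which bear on the subject that the title names, stood above PBS more often than below. Of 30 past the floor, 21 stood above PBS, with a median of 0.12, 0.15 with the trend removed and 0.18 against siNT. The 4 moderately higher and 3 moderately lower members made up 13.3% and 10% of the list, against 8.09% and 6.77% of all genes. The 3 lower members were HK2 and LDHA, described with glycolysis, and the nucleoside transporter gene SLC29A2, at -0.42 [-0.69 to -0.16]. For 14 of the 30 OP449 was the highest of the 5 libraries, against 25.7% of all genes. ODC1, the ornithine decarboxylase of polyamine synthesis, had 2319 scaled counts in PBS and 3389.5 in OP449, with 2726 in siNT, 2589.9 in siSET and 1248 in siCIP2A, at 0.55 [0.46 to 0.63] from PBS. RRP12, a factor that exports ribosomal subunits, was at 1138 scaled counts in OP449 against 669 in PBS, 774 in siNT, 582 in siSET and 763 in siCIP2A, at 0.77 [0.61 to 0.92]. In both OP449 was the highest library. Among 70 genes of ribosome biogenesis and the nucleolus, 55 stood above PBS with a median of 0.11, the same with the trend removed and 0.13 against siNT. Of these, 7 were moderately higher and 0 moderately lower, or 10% against 8.09% of all genes, so the lean consisted of small differences. FTSJ3, which methylates preribosomal RNA, measured 1451 scaled counts in PBS, 1487 in siNT, 1439 in siSET, 1389 in siCIP2A and 1856 in OP449, at 0.36 [0.25 to 0.47]. NOP2, another RNA methyltransferase, stood at 0.34 [0.19 to 0.50], PNO1 at 0.44 [0.23 to 0.66], KRR1 at 0.33 [0.19 to 0.46] and CIRH1A, now named UTP4, at 0.41 [0.26 to 0.55]. Each of these 5 genes was highest in OP449. C1orf107, now named UTP25, stood at 0.34 [0.18 to 0.50] but was highest in siCIP2A, at 998 scaled counts against 836 in OP449. The ribosomal proteins themselves were level, with 24 of 45 above PBS and a median of 0.004. MYC-repressed genes had a median of -0.12 over 14, -0.10 with the trend removed and -0.09 against siNT. Of the 14, 3 were moderately higher (21.4%, against 8.09% of all genes) and 3 moderately lower (21.4%, against 6.77%). TXNIP, an inhibitor of thioredoxin and glucose uptake, stood at 6176 scaled counts in PBS, 10189 in OP449, 5662 in siNT, 9388 in siSET and 9826 in siCIP2A. It was highest in OP449 at 0.72 [0.67 to 0.77], but PBS and siNT were the low pair and siSET and siCIP2A lay near OP449. DKK1, a secreted Wnt inhibitor, had 3138 scaled counts in PBS and 1889.9 in OP449, with 2969.9 in siNT, 4085 in siSET and 2389.5 in siCIP2A, lowest in OP449 at -0.73 [-0.82 to -0.64]. For 23 genes that encode PP2A, its regulators or its inhibitors the median was 0.03, with 13 above PBS, 3 moderately higher and 1 moderately lower, or 13% and 4.35% against the 8.09% and 6.77% of all genes.

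Cell cycle genes show how far the choice of control matters. Of 71 mitosis and G2/M genes, 37 stood above PBS and 34 below, with a median of 0.01, or -0.02 with the trend removed. Of the 71, 3 were moderately higher (4.23%, against 8.09% of all genes) and 0 moderately lower (against 6.77%). Against siNT the median was 0.36, since siNT itself had a median of -0.32 against PBS. CASC5, the kinetochore gene now named KNL1, was among the 3 and was at 747 scaled counts in OP449 against 452 in PBS, 465 in siNT, 431 in siSET and 424 in siCIP2A, at 0.72 [0.54 to 0.91]. In DNA replication and repair 42 of 71 stood above PBS, 9 were moderately higher and 2 moderately lower, with a median of 0.03. That is 12.7% and 2.82% of the list, against 8.09% and 6.77% of all genes. CLSPN, the checkpoint mediator claspin, measured 747 scaled counts in PBS, 678 in siNT, 541 in siSET, 660.3 in siCIP2A and 1077 in OP449, highest in OP449 at 0.53 [0.38 to 0.68]. TIPIN, of the fork protection complex, stood at 0.37 [0.06 to 0.69], the helicase genes BRIP1, FANCM and DNA2 at 0.51 [0.30 to 0.73], 0.51 [0.23 to 0.79] and 0.47 [0.25 to 0.69], and the end-joining ligase gene LIG4 at 0.56 [0.26 to 0.86]. LIG1, the replicative ligase, and ERCC2, a helicase of excision repair, stood lower at -0.46 [-0.62 to -0.29] and -0.34 [-0.49 to -0.20]. With the length and GC trend removed, FANCM stood at 0.37, BRIP1 at 0.38, LIG4 at 0.43, LIG1 at -0.40 and ERCC2 at -0.29. Against siNT, LIG4 stood at only 0.07 and LIG1 at -0.22. By the same control TIPIN stood at 0.33, BRIP1 at 0.38, DNA2 at 0.38, FANCM at 0.58 and ERCC2 at -0.41.

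**Figure D4:**
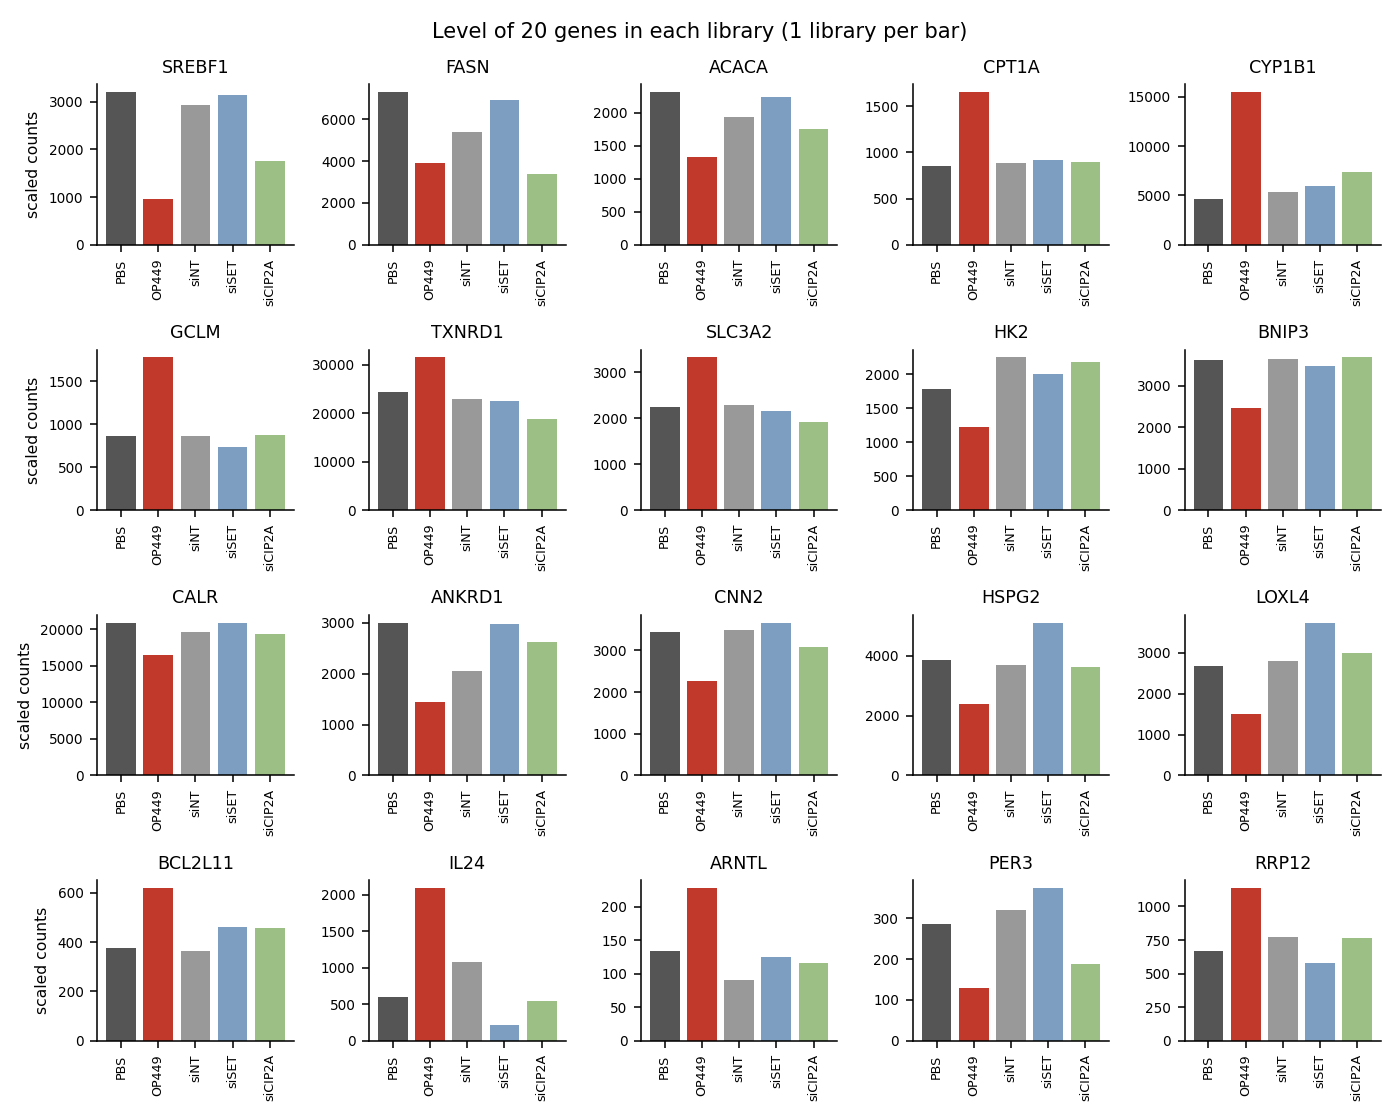
Scaled counts of 20 genes named in the text in the 5 libraries, 1 library per bar and no error bars since nothing was replicated, each panel with its own axis from 0. OP449 (red) is the lowest bar for SREBF1, ACACA, HK2, BNIP3, CALR, ANKRD1, CNN2, HSPG2, LOXL4 and PER3, the highest for CPT1A, CYP1B1, GCLM, TXNRD1, SLC3A2, BCL2L11, IL24, ARNTL and RRP12, and the second lowest, above siCIP2A, for FASN.

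Of the 61 lists with at least 5 members past the floor, 42 met neither condition for a detailed account, and their medians lay between -0.08 and 0.12 against the 0.02 of all genes. Autophagy had a median of 0.05 over 28 genes, the proteasome -0.02 over 30, or 0.01 with the trend removed, splicing factors -0.04 over 78, heat shock and cytosolic chaperones 0.04 over 23, and ERK output and feedback 0.02 over 28. Chromatin modifiers had a median of 0.10 with 57 of 76 above PBS, and the zinc finger genes of chromosome 19 one of 0.11 with 110 of 160 above PBS, which was 0.06 with the length and GC trend removed.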

How the data were processed

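RNA of 5 MDA-MB-231 libraries was reverse transcribed with oligo-dT and sequenced on an Illumina GAII, per the labels' protocols. The deposited signal per RefSeq transcript had been put on a common scale by the authors, and the submitters' processing notes name hg19, CASAVA and Bowtie 1.0.0. The normalisation, the counting rule and its use of strand are not stated in those notes, the labels or the file header. All values were whole multiples of 1 value per library, within 0.001 reads, so reads were recovered. The 16383 rows were reduced to 10596 genes, keeping for each the transcript whose average across the 5 libraries was highest. Symbols turned into dates were restored for 15 rows, and 146 accessions lay at more than 1 position.

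Python 3.11.15 with pandas 2.3.3, numpy 2.4.6 and scipy 1.17.1 was used. Differences are of log2(value + 1) with a floor of 50 scaled counts on the mean of PBS and OP449. Conditions could not be tested against each other, since each had 1 library, and counting intervals are at 95%. At 0 reads, a level of up to 3 reads is allowed, equal to 3.40 scaled counts in PBS and 3.86 in OP449. Transcript length and GC content were those of GENCODE 29 sequences, whose coordinates were not used because their build differs. Calculations were tested on simulated data.

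The comparison and its 62 gene lists were chosen with earlier results of these data known. A gene could be on more than 1 list, as SLC7A5, CHAC1, CD44, MMP1 and PLOD1 were, so the lists are not independent. A list was described in detail when it had at least 5 members past the floor and either its median departed by 0.1 or more from that of all genes or at least 25% of its members were moderately different in 1 direction. Genes named by rule were the 15 highest and 15 lowest with a mean of at least 1000, the 10 highest and 10 lowest under 2-fold with a mean of 200 to 1000, up to 6 members per described list, the 10 most deeply counted moderate differences and all 2-fold genes. Beyond those 6, the other moderately different members of the described lists were added to the named genes. Some genes the rule selects are not reported here. Alternatives were other floors, a pseudocount of 10, a 1.5-fold threshold, other scalings, siNT as control, another choice of transcript, an exact binomial test of reads, means of members and, added after seeing the data, removal of the length and GC trend.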

Additional observations from a re-analysis of the deposited data

How the results depend on the processing

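Raising the threshold of a moderate difference to 1.5-fold left 118 genes higher and 106 lower, with 9 and 24 of them at a mean of at least 1000. With siNT as the control, which differs from OP449 in time as well as treatment, 751 genes were moderately higher and 641 lower, 106 and 166 of them deeply counted, 28 were 2-fold higher, and 30 lists met the conditions for a detailed account. Counts of 2-fold genes followed the floor: 36 higher and 35 lower at a floor of 20, 7 and 7 at 200, and 374 and 406 with no floor, where few reads lie behind each ratio. An exact binomial test of the reads with Benjamini-Hochberg adjustment at 0.05 gave 818 higher and 798 lower, and it compares the 2 libraries, not the conditions. Rescaling moved the all-gene median to between -0.01 and 0.05, and the share of moderate differences that were higher from 54.4% to 63.4% with equal totals and to 45.7% with equal upper quartiles. Among the 208 named genes and the medians of the 19 lists described in detail, the reversals came with siNT as control, and their cause was not tested: AHNAK2 at -0.061, ARNT at -0.0088, ARNTL2 at -0.038, ATP5G2 at 0.027, CSF3 at -0.70, EIF2AK3 at 0.18, FDPS at 0.28, FEM1B at -0.049, IL1A at -0.99, IL1R1 at -0.16, PMVK at 0.19, SLC39A6 at -0.0057, THBS1 at -0.10, UQCR11 at 0.0012, and the medians of the mevalonate list at 0.063 and the NF-kB list at -0.11. A further 94 named genes kept their side against siNT but left their own counting interval against PBS, and 100 stayed inside it. Of the 208 named genes, the 3 rescalings, the pseudocount of 10 and the removal of the trend reversed 0. Removal of the trend took 22 of them outside their own counting interval. Medians of other lists did change sign with the trend removed, as given beside them. Using means of members moved the sterol sensing list to -0.26, and having no floor moved the keratin list to -0.039. No paired analysis was possible because each group has 1 library, and no library could be left out.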

Other observations

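Several of the genes that stood furthest from PBS belong to none of the lists described above. CRIP2, a LIM-domain protein, stood at 49.9 scaled counts in PBS, 260.2 in OP449, 42.7 in siNT, 34.2 in siSET and 36.4 in siCIP2A. The other 4 libraries were all at or under 49.9, and OP449 stood at 2.36 [1.91 to 2.89]. SHISA2, which holds back Wnt and FGF receptors in the endoplasmic reticulum, had 244 scaled counts in PBS and 826 in OP449, with 419.5 in siNT, 151 in siSET and 428 in siCIP2A, at 1.76 [1.54 to 1.99]. FAIM3, the receptor for the Fc part of IgM, was at 804 scaled counts in OP449 against 367 in PBS, 484 in siNT, 207 in siSET and 293 in siCIP2A, at 1.13 [0.93 to 1.33]. OP449 was the highest library for all 3. On hg19 the transcript of FAIM3, on chromosome 1 from 207076633 to 207096592 (minus strand), overlaps the end of that of IL24. The latter runs from 207070789 to 207077484 (plus strand). Since the use of strand in counting is not stated, the value of FAIM3 may hold reads of IL24, which was not tested. Among less deeply counted genes, SCG5, a chaperone of prohormone convertase, stood at 1.44 [0.96 to 1.96] against PBS but 0.17 against siNT, the interleukin-1 receptor antagonist gene IL1RN at 1.18 [0.59 to 1.84] and GREB1L at 1.01 [0.36 to 1.73]. On the lower side, the ubiquitin ligase gene RNF43, which removes Wnt receptors, measured 239 scaled counts in PBS, 299.8 in siNT, 287 in siSET, 166 in siCIP2A and 117 in OP449, at -1.02 [-1.40 to -0.67]. The immune checkpoint gene C10orf54, now named VSIR, stood at -1.19 [-1.56 to -0.85], the endothelial lipase gene LIPG at -1.20 [-1.59 to -0.84], TUB at -1.11 [-1.68 to -0.59], C17orf28, now named HID1, at -1.07 [-1.64 to -0.55], the transporter gene SLC22A18 at -1.05 [-1.79 to -0.39] and the prominin gene PROM2 at -1.04 [-1.55 to -0.58]. TUB was close to siNT, at -0.16, and LIPG and C17orf28 were lower still in siCIP2A.

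Deeply counted genes outside the described lists gave smaller differences with narrow intervals. OTUB2, a deubiquitinase, stood at 1279.8 scaled counts in PBS, 2086 in OP449, 1723 in siNT, 1363 in siSET and 1984 in siCIP2A, at 0.70 [0.59 to 0.82]. TSC22D1, a leucine zipper protein, had 1688 scaled counts in PBS and 2731 in OP449, with 2162 in siNT, 1801 in siSET and 2413 in siCIP2A, at 0.69 [0.60 to 0.79]. In both, siCIP2A and siNT also stood above PBS. MED13, of the Mediator kinase module, stood at 0.50 [0.38 to 0.62] and the adenosine receptor gene ADORA2B at 0.48 [0.36 to 0.60]. AHNAK2 stood at 0.59 [0.48 to 0.69] against PBS, but siNT was as high and siCIP2A far higher. ADAM8, a membrane metalloproteinase, was at 1798 scaled counts in OP449 against 3071 in PBS, 4221 in siNT, 2693 in siSET and 3538 in siCIP2A, lowest in OP449 at -0.77 [-0.87 to -0.68]. NXN, a redox protein, stood at -0.70 [-0.83 to -0.57] and CTSD, the lysosomal protease cathepsin D, at -0.33 [-0.36 to -0.30] on 22166 and 15535 reads. Of genes with a mean of 200 to 1000, the anion channel gene LRRC8C stood at 0.88 [0.58 to 1.18], the general transcription factor gene GTF2A1 at 0.82 [0.54 to 1.12], ESAM, an adhesion molecule of endothelial cells, at 0.79 [0.50 to 1.09], FAM161A at 0.80 [0.49 to 1.13], LPXN, a paxillin relative, at 0.72 [0.42 to 1.03], and FEM1B at 0.81 [0.52 to 1.11], the last level with siNT. Lowest in that range were the neurotrophic factor gene ARTN at -0.96 [-1.24 to -0.69], TMEM135 at -0.93 [-1.24 to -0.65], the procollagen protease gene ADAMTS14 at -0.92 [-1.20 to -0.66], LAPTM5 at -0.89 [-1.11 to -0.67], DCAF4 at -0.83 [-1.13 to -0.55], the epithelial sodium channel gene SCNN1A at -0.81 [-1.11 to -0.51] and the homeobox gene IRX3 at -0.79 [-1.11 to -0.48]. ARTN was lower still in siCIP2A, at 125 scaled counts against 211 in OP449, and LAPTM5 was lower in siSET and siCIP2A, at 226 and 214 against 322.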
